A study of Mus musculus with 12 samples.

Results

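The genes described here mark the epithelium of the bile ducts, or regulate its formation, and were followed in the livers of young mice given low-dose penicillin. They were chosen by name as 9 genes: the keratins Krt19, Krt7 and Krt23, the surface proteins Epcam, Tspan8, Cldn7 and Cd24a, the transcription factor Sox9 and the secreted protein Spp1. Of these, 8 were named by 17 of the 45037 probesets on the array, out of 18193 genes named in all; Spp1 was not analysed here. The penicillin group was 6 male C57BL/6 mice that drank water with low-dose penicillin, and the control group was 6 males of that strain without antibiotic, each with 1 liver array after 7 weeks. The mice came from 1 supplier and ate freely under equal hours of light and dark. No label gives the dose or the cage of a mouse, and penicillin and any shared cage cannot be told apart.

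Bile ducts carry bile out of the liver and are lined by cholangiocytes, an epithelium that is a small minority among hepatocytes. In the embryo, Notch signals from portal mesenchyme turn hepatoblasts around the portal vein into duct cells, which switch on Sox9 and later the keratins of ducts. Sox9 and osteopontin also appear in hepatocytes near ducts when bile flow or tissue is disturbed. In whole liver RNA, fewer cells of a type and less RNA per cell cannot be told apart.

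All values are log2 intensities of probesets, the sets of short probes that read 1 transcript, and a difference is penicillin minus control. The members were dim in whole liver: their probesets lay between percentiles 15.1 and 65.9 of all probesets, while the 8 hepatocyte markers, Alb among them, lay at percentile 99.0 or above. The files give no detection calls, so the dimmest of these levels cannot be told from background. Of the 17 probesets, 9 from 6 genes had a mean over all arrays at or above the median probeset (4.73), and each of the 6 genes was tested by its brightest one. Krt23 and Cldn7 lay under that median. They were read in a second fit over all 45037 probesets.

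Bile duct genes stood lower in penicillin livers, by small amounts that did not pass the test. All 6 tested members were lower, with a median difference of -0.26, beside 47.2% of the 11899 genes tested and a median of 0.01 over them. With limma, 0 of the 6 passed at an adjusted p under 0.05, where 0.0% of all tested genes passed. At an unadjusted p under 0.05 there were 2, Sox9 and Krt19, both lower, where 3.66% of all genes were lower at that level. The groups overlapped for all 6, while 0.151% of all genes were lower in penicillin without overlap. By gene and with no filter, 7 of 8 were lower and Krt23 was higher. By probeset it was 16 of 17, beside 50.3% of all probesets. Of the 17, 6 probesets from 3 genes (Krt19, Sox9 and Tspan8) were lower at an unadjusted p under 0.05, beside 2.83% of all probesets, and 0 passed after adjustment, as did 0.0% of all probesets. Probesets of 1 gene read the same RNA and are not separate evidence.

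**Figure D1:**
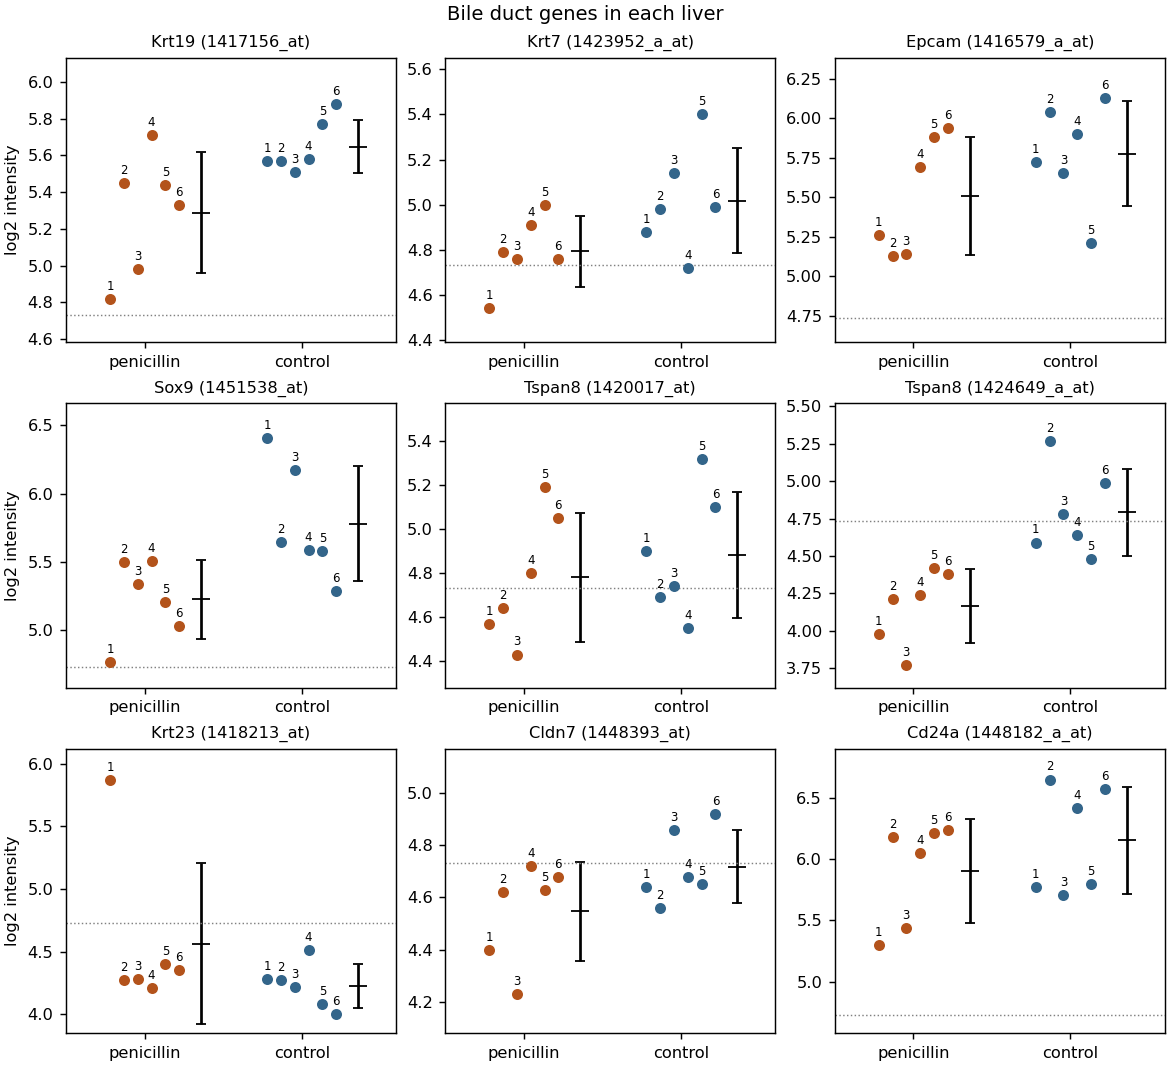
Each panel plots log2 intensity of 1 probeset in 6 penicillin (left) and 6 control (right) livers. Points carry the replicate number, bars are mean and SD, and the dotted line is the median probeset (4.73). Penicillin 1 and penicillin 3 are often low, penicillin 1 alone is high for Krt23, and the groups are apart for the Tspan8 probeset 1424649_a_at.

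The start regions of 5 members are shown so that the gene with the 1 probeset whose groups did not overlap (Tspan8) and the gene that stood higher (Krt23) can be read beside Krt7, Epcam and Cldn7. These are all the measured members that the promoter table holds, out of 8. Each is 250 bases before to 50 after a transcript start, from RefSeq (GRCm38.p6), in the gene's direction. They lie at chr15:101412153-101412452 (Krt7, plus strand), chr17:87635729-87636028 (Epcam, plus strand), chr10:115817034-115817333 (Tspan8, plus strand) and chr11:99493071-99493370 (Krt23, minus strand). Cldn7 has a pair of starts, at chr11:69964529-69964828 and chr11:69965171-69965470 (both plus strand). Capitals mark every match, on either strand, to a binding motif of a duct regulator or to a core promoter motif.
Krt7: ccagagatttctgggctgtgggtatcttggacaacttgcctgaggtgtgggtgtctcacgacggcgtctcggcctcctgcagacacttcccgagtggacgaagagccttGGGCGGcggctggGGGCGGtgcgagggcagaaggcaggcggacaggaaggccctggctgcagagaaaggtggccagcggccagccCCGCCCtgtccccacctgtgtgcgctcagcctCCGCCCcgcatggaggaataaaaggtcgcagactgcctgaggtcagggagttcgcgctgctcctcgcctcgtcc
Epcam: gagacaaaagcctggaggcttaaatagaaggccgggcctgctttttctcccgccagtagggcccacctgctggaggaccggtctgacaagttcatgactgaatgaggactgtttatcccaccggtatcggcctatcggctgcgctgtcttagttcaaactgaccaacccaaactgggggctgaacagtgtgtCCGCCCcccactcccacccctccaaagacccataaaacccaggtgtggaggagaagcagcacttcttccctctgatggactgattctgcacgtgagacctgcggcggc
Tspan8: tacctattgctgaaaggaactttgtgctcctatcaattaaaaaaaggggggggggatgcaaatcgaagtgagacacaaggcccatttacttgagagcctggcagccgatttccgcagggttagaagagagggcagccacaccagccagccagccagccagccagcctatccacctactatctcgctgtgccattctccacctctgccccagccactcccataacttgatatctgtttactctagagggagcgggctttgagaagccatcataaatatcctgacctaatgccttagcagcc
Krt23: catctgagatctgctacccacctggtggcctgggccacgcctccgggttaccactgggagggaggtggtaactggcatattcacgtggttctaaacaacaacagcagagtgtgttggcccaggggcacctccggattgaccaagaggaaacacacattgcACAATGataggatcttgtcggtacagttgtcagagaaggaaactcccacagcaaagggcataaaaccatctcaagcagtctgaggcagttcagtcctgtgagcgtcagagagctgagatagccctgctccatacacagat
Cldn7, upstream start: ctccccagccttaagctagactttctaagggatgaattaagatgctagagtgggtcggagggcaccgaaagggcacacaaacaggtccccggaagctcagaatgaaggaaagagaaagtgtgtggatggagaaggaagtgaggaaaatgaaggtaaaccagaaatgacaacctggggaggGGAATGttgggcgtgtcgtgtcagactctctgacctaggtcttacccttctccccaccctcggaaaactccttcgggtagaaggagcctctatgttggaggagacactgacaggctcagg
Cldn7, downstream start: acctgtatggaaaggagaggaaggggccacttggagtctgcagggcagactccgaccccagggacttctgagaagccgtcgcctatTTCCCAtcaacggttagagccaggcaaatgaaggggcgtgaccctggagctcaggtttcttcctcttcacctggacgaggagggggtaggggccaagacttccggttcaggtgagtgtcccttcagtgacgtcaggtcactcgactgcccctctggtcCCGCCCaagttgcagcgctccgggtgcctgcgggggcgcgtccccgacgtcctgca

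The letters searched were ACAATG (SOX factors), GGAATG (TEAD), TGGGAA (RBPJ, the Notch effector), ACCGGTT (grainyhead-like factors), GGGCGG (the GC box) and TATAAA. Krt7 held 4 GC boxes, Epcam 1 and the downstream Cldn7 start 1, a motif found in 35.7% of 32851 promoters of this length. Krt23 held 1 SOX motif, found in 12.6%. The upstream Cldn7 start held 1 TEAD motif (14.7% of promoters) and its downstream start 1 RBPJ motif (25.6%). Tspan8 held none of the 6. A match is a run of letters and not a binding site, and no match says only that the letters are not in this window. Grainyhead-like and TATAAA letters were found in 1.02% and 13.6% of promoters and in none of those shown.

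Keratins form the intermediate filaments of epithelial cells, and Krt19 and Krt7 separate duct cells from hepatocytes, which make Krt8 and Krt18 alone. Krt19 stood at 4.82, 5.45, 4.98, 5.71, 5.44 and 5.33 in penicillin 1 to 6, against 5.57, 5.57, 5.51, 5.58, 5.77 and 5.88 in control 1 to 6. Of the penicillin livers, 5 lay below every control and penicillin 4 lay among the controls. The group means were 5.29 ± 0.33 for penicillin livers and 5.65 ± 0.14 for control livers (SD, n = 6). The difference was -0.36, or 1.28-fold lower (95% interval -0.65 to -0.07; limma adjusted p = 0.571). The control livers were close together for this gene, and most of the spread was among penicillin livers.

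Krt7 stood at 4.54, 4.79, 4.76, 4.91, 5.00 and 4.76 in penicillin 1 to 6, against 4.88, 4.98, 5.14, 4.72, 5.40 and 4.99 in control 1 to 6. Here the groups overlapped, with control 1, 2, 4 and 6 inside the penicillin range and control 5 the highest of all. The difference was -0.22 (95% interval -0.46 to 0.01; limma adjusted p = 0.650). It was -0.15 without control 5.

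Krt23, a keratin known from stressed liver and from ducts that multiply in liver disease, did not follow the others. It stood at 5.87 in penicillin 1 and at 4.21 to 4.40 in the other 5 penicillin livers, against 4.00 to 4.51 in controls. The difference of 0.34 (SE 0.23; limma adjusted p over all probesets 0.932) rested on penicillin 1. Without that liver the means were 4.30 with penicillin and 4.23 in controls. Penicillin 1 was at the same time the lowest liver for 4 of the 6 tested members, Krt19, Krt7, Sox9 and Cd24a.

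Sox9 is the transcription factor that marks duct cells and their precursors, and it showed the largest difference among the tested members. Its levels were 4.77, 5.50, 5.34, 5.51, 5.21 and 5.03 in penicillin 1 to 6, against 6.41, 5.65, 6.17, 5.59, 5.58 and 5.29 in control 1 to 6. All penicillin livers lay below 5 of the 6 controls, and control 6 fell among them. Penicillin livers averaged 5.23 ± 0.29 and control livers 5.78 ± 0.42 (SD, n = 6). This was 1.47-fold lower, a difference of -0.55 (95% interval -0.96 to -0.15; limma adjusted p = 0.567). The other Sox9 probesets differed by -0.60 (1424950_at) and -0.24 (1433889_at, under the median), and 1424950_at followed the tested one across livers (r = 0.84 within groups, 12 arrays).

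The highest Sox9 levels were those of control 1 and control 3. These livers, with control 5, were also high in immediate early genes, the transcription factors such as Fos that many stimuli switch on within minutes. The mean of 13 immediate early genes stood 2.09, 2.18 and 1.52 above its average in control 1, 3 and 5, against -0.93 to -0.52 in penicillin livers and -0.84 to -0.17 in the other controls. Without these 3 controls the Sox9 difference was -0.28, and with the immediate early mean as a covariate it was -0.19. Leaving out the livers highest in Sox9 shrinks the difference by itself, and the covariate was itself low in all penicillin livers. Control 5 stood at 5.58 for Sox9. A link between Sox9 and the immediate early genes was not tested. All 13 immediate early genes were lower with penicillin, and 0 passed; Klf6 and Fos differed by -0.75 and -3.03, and by -0.43 and -0.77 without the 3 controls. The other members did not shrink alike without the 3 controls: Epcam was then at -0.52, Cd24a at -0.64 and Krt19 at -0.39, while Krt7 was at -0.10 and Tspan8 at 0.00. These shifts, too, come with the livers left out. Control 1, 3 and 5 were the lowest controls for Cd24a (5.77, 5.71 and 5.80). Control 5 was the lowest control for Epcam (5.21) and the highest for Krt7 (5.40) and Tspan8 (5.32).

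Epcam, an adhesion molecule of duct cells and liver progenitors, overlapped between groups. It stood at 5.26, 5.13, 5.14, 5.69, 5.88 and 5.94 in penicillin 1 to 6, against 5.72, 6.04, 5.65, 5.90, 5.21 and 6.13 in control 1 to 6. Low levels were shared by penicillin 1, 2 and 3 and control 5. The difference was -0.27 (95% interval -0.66 to 0.12; limma adjusted p = 0.755). A further Epcam probeset, 1447899_x_at, differed by -0.17 and followed the tested one only loosely (r = 0.21 within groups, 12 arrays); its suffix marks probes that may bind other genes.

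Cd24a, a glycoprotein of duct cells that B cells, neutrophils and young red cells also carry, spread widely in both groups. It stood at 5.30, 6.18, 5.44, 6.05, 6.21 and 6.24 in penicillin 1 to 6, against 5.77, 6.65, 5.71, 6.42, 5.80 and 6.57 in control 1 to 6. Within each group the livers fell into high and low ones: penicillin 1 and 3 and control 1, 3 and 5 were low. The difference was -0.25 (95% interval -0.73 to 0.22; limma adjusted p = 0.829). It was -0.13 without penicillin 1, -0.16 without penicillin 3 and -0.15 without control 2. Its 3 probesets rose and fell together, with r of 0.92 to 0.95 within groups over 12 arrays, but differed between groups by -0.25, -0.20 and -0.01. The last of these changed sign when single livers were left out (-0.09 to 0.10).

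Tspan8, a tetraspanin of secretory epithelia, was read by 5 probesets that did not give 1 answer. The tested one, 1420017_at, stood at 4.43 to 5.19 in penicillin livers and 4.55 to 5.32 in controls, a difference of -0.10 (95% interval -0.43 to 0.22; limma adjusted p = 0.911). Leaving out single livers moved it between -0.19 (without penicillin 5) and -0.02 (without control 5). It was also -0.06 without penicillin 1 or control 6, -0.04 without penicillin 3, -0.16 without penicillin 6 and -0.17 without control 4. Probeset 1424649_a_at stood at 3.98, 4.21, 3.77, 4.24, 4.42 and 4.38 in penicillin 1 to 6, against 4.59, 5.27, 4.78, 4.64, 4.48 and 4.99 in control 1 to 6.

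Every penicillin liver was below every control for 1424649_a_at, which happened for 1 of the 17 member probesets and, as lower in penicillin, for 0.122% of all probesets. Its difference was -0.63 (SE 0.14, 95% interval -0.92 to -0.33), and its limma adjusted p over all probesets, 0.518, did not pass. Leaving out single livers moved it between -0.69 and -0.53, and without control 1, 3 and 5 it was -0.80. Its mean lay under the median probeset, so it was not among the tested genes. The remaining Tspan8 probesets, also under the median, differed by -0.09 (1455709_at), -0.16 (1420018_s_at) and -0.13 (1420019_at). Across livers, none of the other 4 followed 1424649_a_at (r of -0.25 to 0.25 within groups).

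Cldn7, a claudin that seals the junctions of ducts and other epithelia, lay just under the median. It stood at 4.40, 4.62, 4.23, 4.72, 4.63 and 4.68 in penicillin 1 to 6, against 4.64, 4.56, 4.86, 4.68, 4.65 and 4.92 in control 1 to 6. The groups overlapped, with penicillin 1 and 3 lowest. The difference was -0.17 (95% interval -0.37 to 0.03; limma adjusted p over all probesets 0.900), and -0.11 without penicillin 3.

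**Figure D2:**
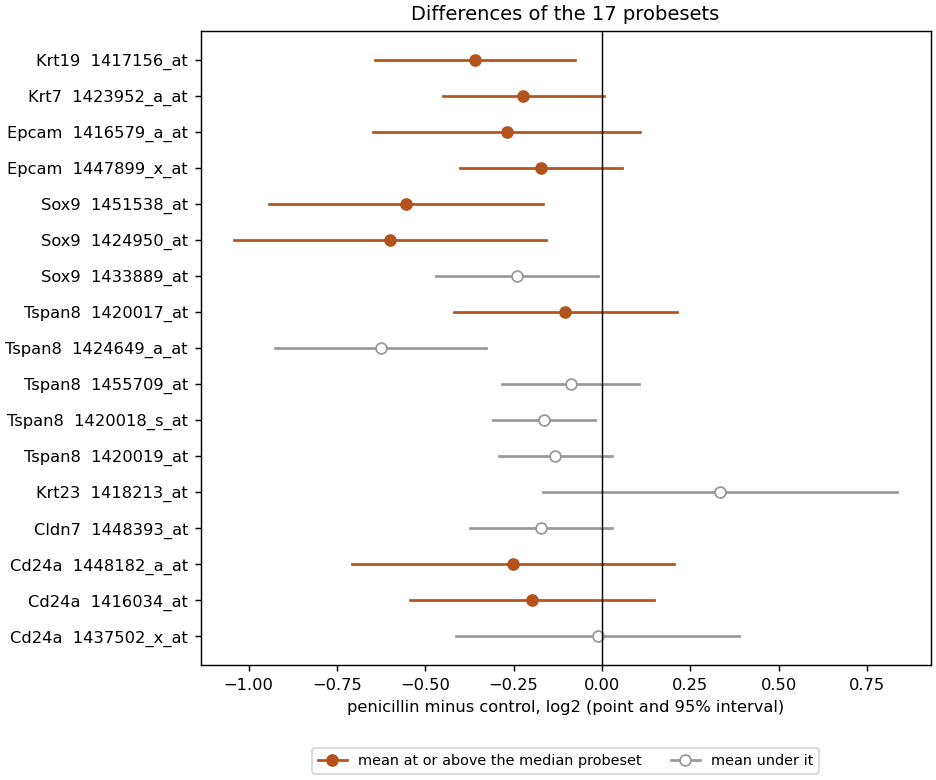
Penicillin minus control difference of each of the 17 probesets on the log2 scale, with its 95% interval from the fit over all probesets. Filled points had a mean at or above the median probeset and open points lay under it; Krt23 alone lies above 0, and the Tspan8 probeset 1424649_a_at lies at -0.63.

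The members did not rise and fall as 1 block. Among the 15 pairs of tested members, r within groups over 12 arrays ran from -0.26 to 0.71 with a median of 0.22. The pairs most alike were Epcam with Cd24a (0.71) and Krt7 with Tspan8 (0.69), and Sox9 with Cd24a was the least alike (-0.26). These points share arrays and normalization, and the values are a description. The mean of the 6 genes, relative to the 12 livers, was -0.52 in penicillin 1 and -0.38 in penicillin 3. The other penicillin livers were at -0.11 to 0.09, against 0.06 to 0.26 in controls.

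Markers of some other cells were low in the same 2 livers, and those of others were not. Intestinal epithelial markers stood at 0.30 and 0.29 in penicillin 1 and 3, and hepatocyte markers at 0.10 and -0.03. The mean of 6 stellate cell and fibroblast genes stood at -0.57 in penicillin 1 and -0.40 in penicillin 3, and at 0.10 to 0.30 in the other penicillin livers, against -0.26 to 0.45 in controls. Endothelial markers (6 genes) were at -0.31 and -0.16 there, at -0.01 to 0.07 in the other penicillin livers, and at -0.17 to 0.40 in controls. Between the groups, 5 of 6 stellate and 4 of 6 endothelial genes were lower, with medians of -0.13 and -0.10; Dcn, a matrix proteoglycan, differed by -0.25 and Clec4g, a lectin of sinusoids, by -0.12. Mesothelium, the surface lining of the liver, also makes Krt19 and Krt7. Its 4 tested markers of 7 were all lower with penicillin, with a median of -0.45 and a mean level of 4.52 to 5.57 in penicillin livers and 4.76 to 6.09 in controls.

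Msln, the mesothelial surface protein mesothelin, differed by -0.38 and the membrane protein Gpm6a by -0.74, and neither passed (limma adjusted p = 0.699 and 0.707). Without control 1, 3 and 5 Msln was at -0.50 and Gpm6a at -1.02. Markers of the other cells that carry Cd24a went both ways. Of the B cell markers 2 of 2 tested were higher (median 0.24), and the erythroid gene Alas2 differed by 0.10. Of the neutrophil markers 4 of 4 tested, of 9 listed, were lower (median -0.94). The mean level of the neutrophil markers was 4.84 to 5.45 with penicillin and 5.59 to 6.97 in controls. S100a8 and S100a9, the calprotectin subunits, differed by -1.94 and -1.63 without passing (limma adjusted p = 0.304 and 0.299). Kupffer cell markers had 7 of 9 lower, with a median of -0.07. The part of these cells in the differences of the duct genes was not tested. Hepatocyte markers had 6 of 8 lower with a median of -0.02, at a mean level of 13.90 to 14.15 with penicillin and 13.89 to 14.17 in controls. The 3-prime minus 5-prime signal of Gapdh, a sign of RNA breakdown, was -0.15 to -0.02 with penicillin and -0.17 to 0.01 in controls, and that of beta-actin 0.88 to 1.02 with penicillin and 0.86 to 1.01 in controls.

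**Figure D3:**
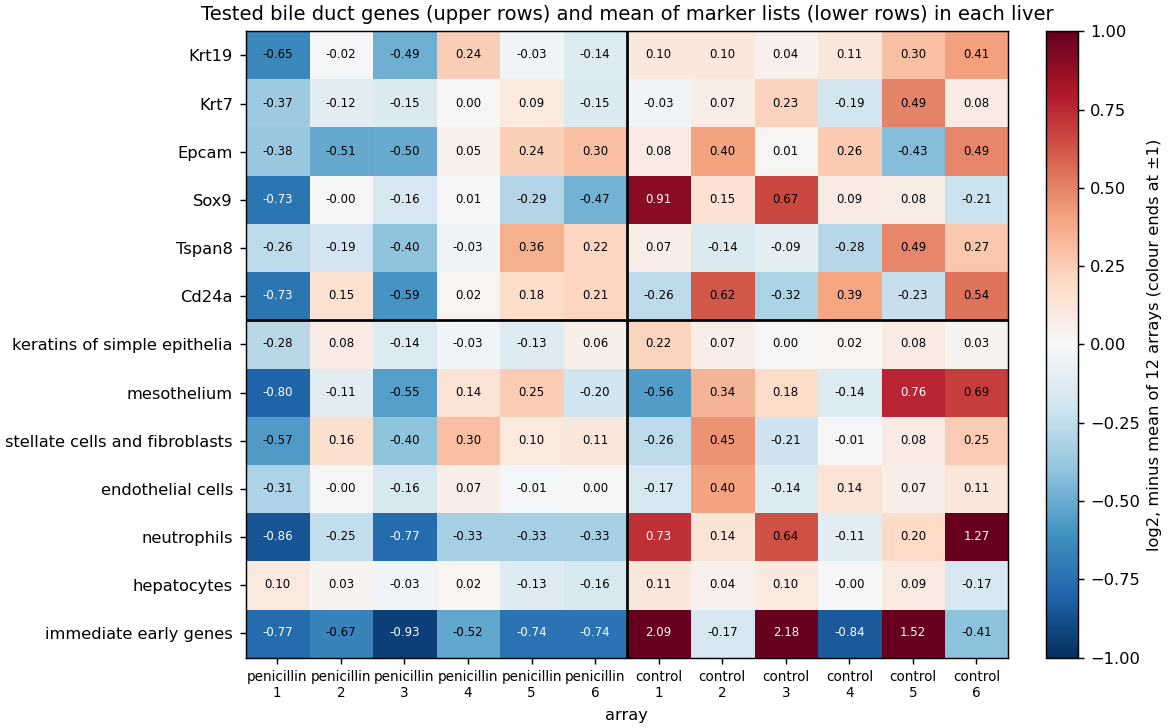
Log2 level of the 6 tested bile duct genes, and mean of 7 lists of other genes, in each of 12 livers, minus the mean over the livers (penicillin left, control right; colour ends at 1 either way, numbers are the values). Penicillin 1 and penicillin 3 are low for most duct, mesothelial, stellate and endothelial rows, and control 1, 3 and 5 are high for immediate early genes.

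Regulators of ducts other than Sox9 gave differences in both directions. Of 8 listed duct transcription factors 5 were tested, 2 lower and 3 higher, with a median of 0.04. Onecut1 (HNF6), a factor of duct formation, averaged 7.88 ± 0.49 in penicillin livers and 7.07 ± 1.07 in control livers (SD, n = 6), and the difference of 0.81 did not pass (limma adjusted p = 0.676). Without control 1, 3 and 5 the Onecut1 difference was 1.21. Elf3, a factor of epithelial cells, differed by -0.15, or by -0.09 without these 3 controls. No gene of this list passed.

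Notch signalling sets duct fate through the ligand Jag1 and the receptor Notch2. Of 15 tested genes of the pathway 9 were lower and 6 higher, with a median of -0.02, and 0 passed. Their smallest p-values belonged to the target genes Heyl (-0.20, SE 0.11) and Hes1 (-0.22, SE 0.17). Without control 1, 3 and 5 Heyl was at -0.11 and Hes1 at 0.01.

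The Yap pathway, which pushes hepatocytes toward duct features when active, had 9 of 14 tested genes lower and 5 higher, a median of -0.06 and 0 past the threshold. Its targets Ccn2 (connective tissue growth factor) and Ccn1 had the smallest p-values of the list. Ccn2 averaged 8.12 ± 0.21 in penicillin livers and 8.76 ± 0.61 in control livers (SD, n = 6), differing by -0.64 (limma adjusted p = 0.570). Ccn1 differed by -0.53. Both shrank without control 1, 3 and 5, to -0.25 and -0.08.

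Genes of duct function leaned lower by little. For secretion and cilia, 8 of 9 tested genes were lower, with a median of -0.08. They included Slc10a2, the bile acid uptake carrier of ducts and ileum (-0.41, SE 0.28, and -0.13 without control 1, 3 and 5), and Pkd1, the polycystin of cilia (-0.08, SE 0.06). Of 6 other duct epithelial markers 5 were lower, with a median of -0.08. Tm4sf4, a membrane protein of duct cells and hepatocytes, averaged 11.13 ± 0.13 in penicillin livers and 11.39 ± 0.14 in control livers (SD, n = 6; difference -0.26, limma adjusted p = 0.508). Wfdc2, a secreted protease inhibitor, was at 0.35 and turned to -0.21 without control 1, 3 and 5. Neither list had a gene past the threshold.

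Relatives of the members were read beside them. Krt18, the partner of Krt8 in hepatocytes and ducts, averaged 11.80 ± 0.25 in penicillin livers and 12.10 ± 0.14 in control livers (SD, n = 6), differing by -0.30 (limma adjusted p = 0.570). Krt8 differed by -0.08, and all 3 tested keratins of this list were lower (median -0.08). Of 4 claudins of hepatocytes 3 were lower (median -0.15), with Cldn2, a pore-forming claudin, at -0.12 and Cldn14 at -0.23, which turned to 0.03 without control 1, 3 and 5. Other tetraspanins had 4 of 12 lower and 8 higher, with a median of 0.01, but 9 of 12 lower and a median of -0.09 without control 1, 3 and 5. Tspan15 differed by -0.16 and Cd9 by -0.34 (-0.62 without these 3 controls).

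Genes of epithelial junctions and identity had 9 of 15 tested lower and 6 higher (median -0.05), among them the tight junction protein Ocln (-0.30, SE 0.20) and the desmosomal protein Perp (0.13, SE 0.09). Without control 1, 3 and 5, 12 of 15 were lower (median -0.14), with Ocln at -0.52 and Perp turned to -0.01. Receptors of osteopontin, the product of Spp1, had 7 of 9 lower with a median of -0.14. The integrin subunit Itgb3 differed by -0.28 (limma adjusted p = 0.622) and Cd44 by -0.25 (limma adjusted p = 0.674). Without these 3 controls Itgb3 was at -0.09 and Cd44 at -0.36. In each of these 10 pathway lists 0 genes passed.

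**Figure D4:**
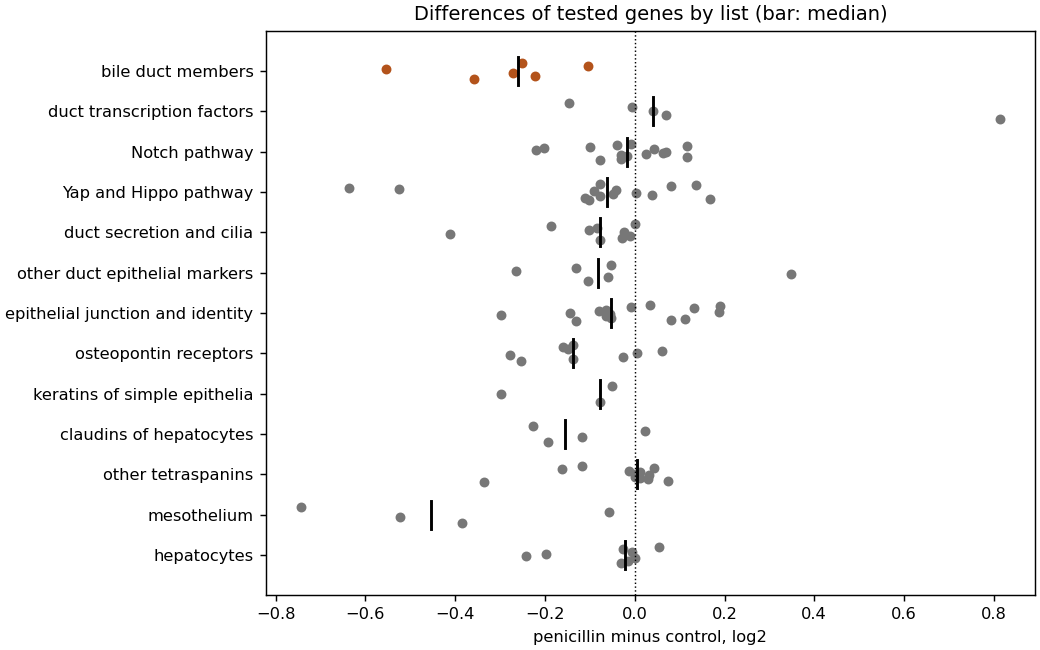
Penicillin minus control difference (log2) of every tested gene, by list, with a bar at the median of each list. The 6 bile duct members all lie left of 0 with a median of -0.26, mesothelial markers lie further left (-0.45), and Notch genes and hepatocyte markers centre near 0.

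The genes whose levels followed the mean of the 6 members most closely were Plscr1, Tmx3, Elf2, Mamdc2 and Esyt2, with r of 0.906 to 0.944 over 12 arrays after centring each group, out of 11893 genes compared. Plscr1, a phospholipid scramblase, stood at 7.48, 7.74, 7.58, 8.06, 7.99 and 7.93 in penicillin 1 to 6, against 8.07, 8.26, 8.17, 8.10, 8.17 and 8.32 in control 1 to 6. Every penicillin liver was below every control for it, as for 0.151% of all genes tested. Its difference of -0.39 (SE 0.10) did not pass (limma adjusted p = 0.377). The other 4 differed by -0.04 to 0.07. Among penicillin livers, penicillin 1 and penicillin 3 were the lowest for all 5 of these genes. This comes with the choice of the genes, since the mean that they were picked to follow was lowest in those livers.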

How the data were processed

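Liver RNA of 12 mice was measured on 1 Affymetrix array each. The authors' deposited intensity values were made with RMA, per the submitters' processing notes; no source used here gives its version or settings. RMA makes the distributions of arrays alike, which removes a change shared by most genes. The deposited values were linear (4.92 to 36550), so log2 was taken here, with no further normalization.

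Probesets were named by the platform annotation where it gave 1 gene, with symbols from a RefSeq table (GRCm38.p6). Each gene was represented by its brightest probeset with a mean at or above the median of the 45037 probesets other than controls (11899 genes). Penicillin minus control was fitted with limma 3.58.1 (R 4.3.3), with Benjamini-Hochberg adjustment over all genes, or over all probesets for the fit with no filter. The number of arrays limits the precision. In simulated data with the spread of these 11899 genes, 76% of genes changed 1.5-fold and 94% of those changed 2-fold were recovered. There were 12 false calls over all fold sizes together. The simulated noise was independent between genes, and the changed genes were drawn from all of them. The simulation changed 50 genes at each of 1.5-, 2-, 3- and 4-fold. The share recovered depends on how many genes change and by how much, and in the data themselves 0 genes were called. These shares therefore need not hold for the members: Sox9, 1.47-fold lower, had a limma adjusted p of 0.567. P-values assume independent mice.

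Members and 22 other lists were chosen with earlier results of these data known, as were the alternatives (filters, normalization, probeset summary, block, weights, priors, omitted arrays, covariate). Genes named were the members, the 2 listed genes with the smallest p per list, and the 5 most like the members; Alb, Jag1, Notch2 and others without values are background.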

Additional observations from a re-analysis of the deposited data

Results flagged for a closer look

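Within 88 groups of 6 livers, 3 single livers stood far from the other 5, by the gap to the nearest divided by the range; chance would set apart about 5% of such groups. Penicillin 1 stood at 5.87 for Krt23 (1418213_at), beside 4.21 to 4.40 in the other penicillin livers. The same liver stood at -0.23 for the mean of the other duct epithelial markers, beside -0.03 to 0.07. Control 1 stood at 0.22 for the mean of the keratins of simple epithelia, beside 0.00 to 0.08 in the other controls.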

How the results depend on the processing

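Under the alternatives run, limma called 0 of the tested genes and 0 of the members. The smallest adjusted p over all genes ran from 0.0732 with the replicate block to 0.996 without control 1, 3 and 5, and 488 to 1407 genes had an unadjusted p under 0.05 (950 in the reported fit). The stricter filter, at the 75th percentile, left no member to test. Without control 6 and penicillin 1, 5 and 6, the livers highest in core clock genes, 0 members had an unadjusted p under 0.05. Over all tested genes 863 had one. The reported fit had 2 members, Sox9 and Krt19, which were at -0.428 and -0.221 without these livers. Fewer livers can raise a p-value by themselves, and penicillin 1 was the lowest liver for 4 of the 6 tested members. A link to the clock genes was not tested. The median difference of the members ran from -0.337 to -0.18, and 15 or 16 of the 17 probesets were lower when arrays were left out. Krt19 ran from -0.443 to -0.221, Sox9 from -0.653 to -0.189, Epcam from -0.518 to -0.135, Krt7 from -0.281 to -0.088 and Cd24a from -0.667 to -0.079 across all alternatives. The direction turned for Tspan8 alone among the tested members, to 0.00036 without control 1, 3 and 5 and to 0.00349 with the immediate early mean as a covariate, values next to 0; the cause was not tested. The labels do not say whether the replicate numbers pair the samples, and the values do not settle it. Same-numbered pairs had correlations of -0.255 to 0.385, with 4 of 6 over 0.1. Of the penicillin arrays, 2 of 6 were closest to the control of their own number. Each number has 1 array of each group, so the replicate block cannot change a difference, and the members' median of -0.261 stayed by design. It called 0 of 11899 genes. With the block, 3 members had an unadjusted p under 0.05, beside 1214 of all genes, and the smallest limma adjusted p of a member was 0.411. The member probesets lay between percentiles 15.1 and 65.9 of all probesets. Without detection calls, a level near background can understate a difference, and noise there can also make one.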

Other observations

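The remaining lists held 0 genes past the threshold in limma, with 1 gene, Fabp2, at an unadjusted p under 0.05. Intestinal epithelial markers, of interest since some are shared with ducts, had 2 of 3 tested higher: Fabp2, a fatty acid binding protein, by 0.48 (limma adjusted p = 0.265) and the lectin Lgals4 by 0.19 (0.07 without control 1, 3 and 5). Pancreatic acinar markers had 1 of 3 tested higher, with the elastase Cela1 at 0.13 (0.51 without these 3 controls) and the trypsinogen Prss2 at -0.05. B cell markers had 2 of 2 tested higher, Cd79b by 0.28 (0.11 without them) and Jchain by 0.19. The erythroid gene Alas2, the 1 tested of its list, differed by 0.10 (0.32 without them). Core clock genes had 6 of 11 higher, with a median of 0.19. Their smallest p-values belonged to Per3 (0.90) and Clock (-0.31).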
